A study of Homo sapiens with 6 samples.

Results

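FOXO1, FOXO3 and FOXO4 and 7 genes described as direct targets of FOXO proteins (FBXO32, IRS2, INSR, RBL2, CITED2, CCNG2 and PINK1) were followed by RNA sequencing in SU-DHL-8 cells. SU-DHL-8 is an established cell line grown from a human large B-cell lymphoma of the diffuse type. These 10 genes, of 65746 gene symbols in the count table, were chosen by name. One group of 3 libraries came from cells given 100 nM erianin for 24 h, and the other group of 3 libraries from cells given DMSO, the solvent, for 24 h. Both groups were the same cell line, labelled as wild type, so all values describe 1 line. Erianin is a bibenzyl from Dendrobium orchids, described as a tubulin ligand, and the study's title ties it to PI3K/AKT signalling. Whether the 3 replicates of a group were separate cultures is not stated, and the p-values therefore reflect only library-to-library spread, part of which may be technical.

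FOXO proteins are forkhead transcription factors at the end of the insulin and PI3K pathway. When PI3K is active, AKT phosphorylates them, 14-3-3 proteins bind them and they leave the nucleus. When AKT is quiet they enter the nucleus and activate genes of cell cycle arrest, stress defence, autophagy, cell death and, as feedback, insulin signalling. In B cells FOXO1 is needed for early B-cell development and for the dark zone programme of germinal centres. RNA levels do not show where the proteins are or whether they are phosphorylated.

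Total counts ran from 30956443 to 35588728 per library, so that 3 counts, used here as a floor, equalled 0.084 to 0.097 CPM (counts scaled to library size). This floor covers counting error only. The 8 B-cell markers summed to 2393 to 2681 CPM with erianin and 2837 to 3886 CPM with DMSO. Markers of T and NK cells summed to 4.83 to 5.83 CPM with erianin and 1.81 to 5.97 CPM with DMSO. Most of this sum was NKG7, with 4.75, 4.74 and 5.49 CPM with erianin, against 1.81, 5.33 and 5.88 CPM with DMSO. Stromal and epithelial markers stayed at or below 0.601 CPM in every library. CD3G, CD2, EPCAM and CDH1 were listed at 0. Myeloid markers summed to 9.82 to 11.4 CPM with erianin and 4.76 to 7.70 CPM with DMSO. Most of this sum was LYZ, which was not called. LYZ had 7.32, 7.28 and 8.63 CPM with erianin, against 4.21, 7.06 and 6.03 CPM with DMSO. Of the 4 tested myeloid markers 2, CD14 and CSF1R, rose, while S100A8 was listed at 0. CD14 had 1.56 to 1.60 CPM with erianin and 0 to 0.265 CPM with DMSO, and the part of such cells in the results was not tested. DMSO replicate 1 stood apart: its biological coefficient of variation was 0.292 and 0.295 against the other DMSO libraries, which differed from each other by 0.0380, while erianin libraries differed by 0.0336 to 0.0815. Results on the 10 genes are therefore given with and without it.

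Levels compared between libraries are CPM scaled by TMM, and levels compared between genes are the deposited TPM, which divide by gene length. Per length, CITED2 led in all 6 libraries and FOXO1 came after it. CITED2 had 124, 130.0 and 138 TPM with erianin, against 79.7, 75.6 and 74.8 TPM with DMSO. FOXO1 had 55.3, 57.2 and 54.2 TPM with erianin, against 57.3, 53.8 and 52.6 TPM with DMSO. FOXO3, FOXO4, RBL2 and CCNG2 formed a middle class of 10.2 to 21.7 TPM whose order changed from library to library. With erianin FOXO3 and FOXO4 stood above CCNG2 and RBL2 in each library, whereas in DMSO replicates 2 and 3 RBL2 stood above FOXO4. FBXO32 and PINK1 lay between 0.395 and 1.84 TPM, and INSR and IRS2 did not exceed 0.0378 TPM. Of the summed TPM of the FOXO genes, FOXO1 made up 58.8% to 61.8% with erianin and 57.2% to 63.8% with DMSO. FOXO3 made up 20.2% to 21.4% of that sum with erianin and 22.7% to 23.6% with DMSO. TPM columns summed to 63.6% to 65.2% of the nominal total in the erianin libraries, and to 39.2% in DMSO replicate 1 and 65.7% and 66.7% in the other DMSO libraries. A TPM of DMSO replicate 1 is therefore on another scale than one of the other libraries. DMSO replicate 1 set the lower ends of 10.2 and 0.395 TPM above, and these ends carry this limit, as do its 79.7 and 57.3 TPM. Otherwise its TPM are read in this paragraph by the order and ratios of genes within the library. The fits on log2 TPM given below set it beside the other libraries and carry this limit too.

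**Figure D1:**
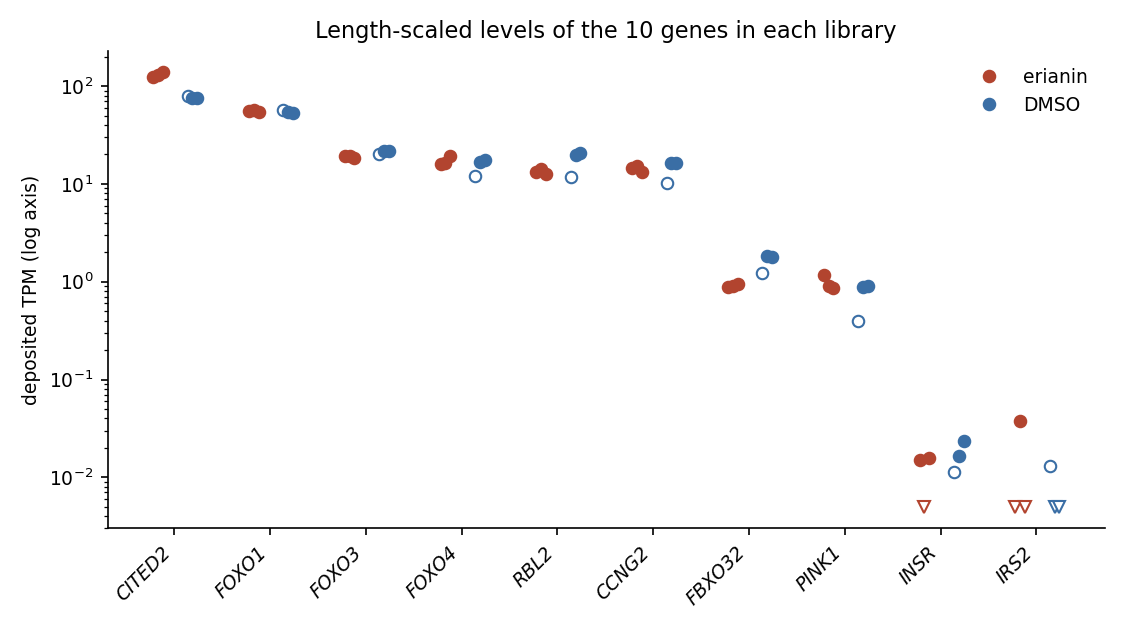
Deposited TPM of the 10 genes (log axis), with 3 erianin libraries left of 3 DMSO libraries for each gene; open circles are DMSO replicate 1 and open triangles at the lower edge are values of 0. CITED2 and FOXO1 lie at 52.6 TPM or above, 4 genes lie between 10.2 and 21.7 TPM, and INSR and IRS2 lie below 0.0378 TPM or at it.

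Of the 10 genes, 8 had enough counts for the test, in which 24.2% of 11550 genes passed an adjusted p of 0.05, 11.8% higher and 12.3% lower. With all 6 libraries, 0 of the 8 genes rose and 2 fell, FBXO32 and RBL2, while 6 were not called. At an unadjusted p under 0.05 edgeR had 0 higher and 4 lower, where 19% of all tested genes were higher and 19.4% lower. DESeq2 called 0 higher and 3 lower, where it called 11.8% of genes higher and 13.5% lower. The median log2 fold change of the 8 genes was -0.27 with all libraries and -0.14 without DMSO replicate 1, against -0.0033 and 0.025 for all tested genes. Without DMSO replicate 1, 27.8% of genes rose and 27.4% fell. CITED2 was then called higher, and FBXO32, RBL2, CCNG2 and FOXO3 lower, so that 1 rose, 4 fell and 3 were not called. The CPM ranges of the groups did not overlap for 4 of the 8 genes (FBXO32, RBL2, CCNG2 and FOXO3), all lower with erianin, where 23.1% of tested genes were apart and lower and 23.6% apart and higher. Without DMSO replicate 1, CITED2 was apart and higher as well, where 34.6% of genes were apart and higher and 34.9% apart and lower. FBXO32 was the 1 gene of the 8 called lower without erianin replicate 1 or 2, where 2.98% and 2.89% of all genes fell and 3.67% and 3.48% rose. FBXO32 and RBL2 were both called lower without erianin replicate 3, DMSO replicate 2 or DMSO replicate 3, where 4.97%, 8.34% and 9.42% of genes fell and 5.28%, 6.91% and 7.44% rose, and with the replicate number as a block, where 9.86% rose and 10% fell. In fits that compare TPM between libraries, and so hold the other scale of DMSO replicate 1, the calls differed. On log2(TPM + 1) FBXO32 was called lower and CITED2 higher, where 2.27% of genes fell and 12.2% rose, and on log2(TPM + 0.1) CITED2 alone was called, where 2.12% fell and 10.9% rose. With sample quality weights in limma-voom CITED2 was called higher and FBXO32, RBL2, CCNG2 and FOXO3 lower, where 32% of all genes rose and 32.1% fell. The same 5 genes were called with GC content and length offsets and no DMSO replicate 1, where 24.5% rose and 36.9% fell.

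As these are bulk libraries, fewer cells that express a gene and less RNA of it per cell cannot be told apart.

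**Figure D2:**
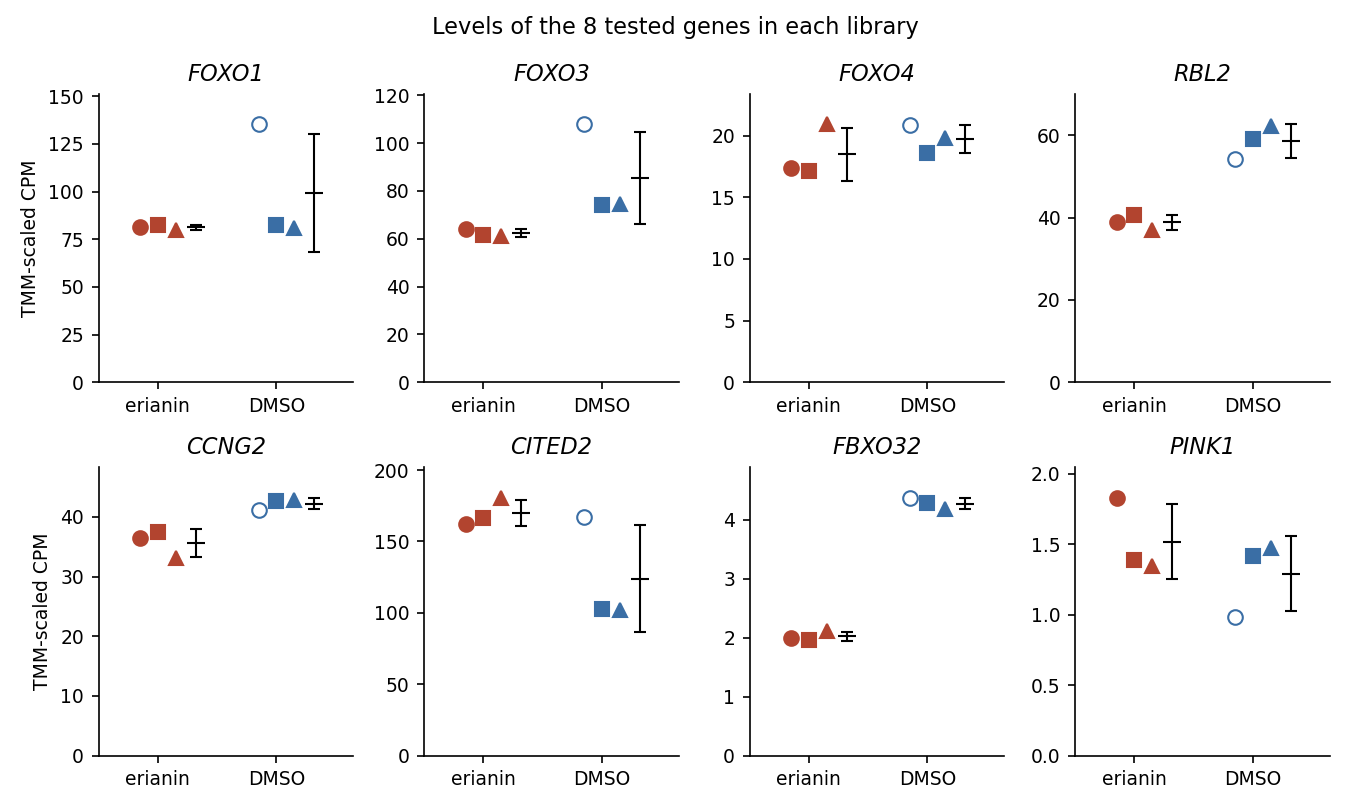
TMM-scaled CPM of the 8 tested genes in each library, erianin left of DMSO; symbols mark replicates 1 (circle), 2 (square) and 3 (triangle), the open circle is DMSO replicate 1, and the bars are mean ± SD (n = 3). FBXO32, RBL2, CCNG2 and FOXO3 separate the groups, and FOXO1, FOXO3 and CITED2 in DMSO replicate 1 lie far above the other DMSO libraries.

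Of the factors themselves, FOXO1 (ENSG00000150907, chromosome 13, 40469953 to 40666597, minus strand) had the highest level, as the length-scaled values showed. It had 81.6, 82.5 and 79.9 CPM with erianin, against 135, 82.4 and 80.7 CPM with DMSO. Only DMSO replicate 1 differed from the rest, and the other 5 libraries lay within 79.9 to 82.5 CPM. FOXO1 was not called (log2 fold change -0.29 ± 0.20 SE, adjusted p = 0.34). Its log2 fold change was 0.0088 ± 0.067 without DMSO replicate 1 (adjusted p = 0.92). In DMSO replicate 1 FOXO1 was 0.73 above the mean of the other DMSO libraries on the log2 scale, beyond 0.69, the 90th percentile of all tested genes for the same ratio. Offsets for GC content and gene length gave FOXO1 a log2 fold change of -0.27 ± 0.14 (adjusted p = 0.17).

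FOXO3, the paralog tied to stress resistance and cell death (ENSG00000118689, chromosome 6, 108559835 to 108684774, plus strand), had 64.1, 61.6 and 61.3 CPM with erianin, against 108, 74.3 and 74.5 CPM with DMSO. Each erianin library lay below each DMSO library. With all libraries FOXO3 missed the threshold (-0.46 ± 0.16, adjusted p = 0.080). It fell by 0.24 ± 0.069 on the log2 scale once DMSO replicate 1 was left out (adjusted p = 0.0044). It was also called lower with the GC content and length offsets (-0.41 ± 0.11, adjusted p = 0.029), where 21.8% of genes fell and 14.9% rose. FOXO3B, a near-identical copy of FOXO3 with which reads may be split, had 0.191 to 0.665 CPM in the erianin libraries and 0.216 to 0.427 CPM in the DMSO libraries.

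FOXO4, the X-linked paralog (ENSG00000184481, chromosome X, 71096197 to 71103535, plus strand), had 17.4, 17.2 and 20.9 CPM with erianin, against 20.9, 18.6 and 19.8 CPM with DMSO. The groups overlapped, and FOXO4 was not called with all libraries (-0.096 ± 0.13, adjusted p = 0.62) or without DMSO replicate 1 (-0.042 ± 0.10, adjusted p = 0.75). FOXO6, the remaining factor of the family, had 1 count in 1 erianin library and 0 in the other 5 libraries.

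A pair of the targets are regulators of the cell cycle. RBL2 encodes p130, a pocket protein that holds E2F target genes silent in resting cells (ENSG00000103479, chromosome 16, 53433977 to 53491649, plus strand). It had 38.9, 40.7 and 37.0 CPM with erianin, against 54.3, 59.1 and 62.4 CPM with DMSO. The groups were apart and RBL2 fell by 0.59 ± 0.10 on the log2 scale, to 0.663 of the DMSO level (adjusted p = 0.0087). Without DMSO replicate 1 it fell by 0.63 ± 0.075 (adjusted p = 1.1e-07). The call of RBL2 ended without erianin replicate 1 (adjusted p = 0.061) and without erianin replicate 2 (adjusted p = 0.053). RBL2 shares 610 of 7320 exonic bases with AKTIP on the opposite strand, and the handling of strand is not given in the sources used here. AKTIP had 534, 461 and 421 raw counts with erianin, against 360, 344 and 331 with DMSO. RBL2 also shares 721 exonic bases with AC007342.6 on the opposite strand, for which no counts were available. The part of reads from these overlaps in the RBL2 values was not tested.

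CCNG2 encodes cyclin G2, an unconventional cyclin linked to arrest rather than to cell cycle entry (ENSG00000138764, chromosome 4, 77157151 to 77433388, plus strand). It had 36.4, 37.5 and 33.0 CPM with erianin, against 41.1, 42.6 and 42.9 CPM with DMSO. The groups did not overlap, but the difference was small and was not called with all libraries (-0.24 ± 0.10, adjusted p = 0.12). CCNG2 fell by 0.25 ± 0.079 when DMSO replicate 1 was left out (adjusted p = 0.0096), nearly the same size with a smaller error. DMSO replicate 1 itself was within 0.056 of the other DMSO libraries for CCNG2 on the log2 scale.

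CITED2, a co-regulator that binds CBP and p300 and restrains HIF-dependent transcription, was the most abundant of the 10 genes (ENSG00000164442, chromosome 6, 139371807 to 139374620, minus strand). It had 163, 167 and 180.5 CPM with erianin, against 167, 103 and 102 CPM with DMSO. DMSO replicate 1 lay inside the erianin range, and the other DMSO libraries lay below every erianin library. CITED2 was not called with all libraries (0.45 ± 0.20, adjusted p = 0.14). Without DMSO replicate 1 it rose by 0.74 ± 0.065 on the log2 scale, 1.67-fold (adjusted p = 7.5e-10). With the GC content and length offsets over all 6 libraries it was 0.40 ± 0.19 (adjusted p = 0.14).

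CITED2 and FOXO1 shared the high value in DMSO replicate 1, where CITED2 was 0.70 above the other DMSO libraries on the log2 scale. The ratio of their TPM within a library, which no scaling between libraries can alter, was 2.24, 2.27 and 2.54 with erianin, against 1.39, 1.41 and 1.42 with DMSO. On this ratio DMSO replicate 1 lay with the other DMSO libraries and the groups were apart. The ratio was chosen after the values were seen and was not tested.

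The promoters of these most abundant genes are shown because FOXO proteins bind forkhead sites in DNA, and since a target may carry one near its start. RefSeq promoter windows (GRCh38.p14, 250 bases before to 50 after each start) matched 8 of the 10 genes, with 14 windows. FBXO32 and PINK1 had no window and were not searched. The windows were searched on both strands for GTAAACA, the forkhead core, and for CAAAACA, the core of the insulin response element. No window of the 8 genes held both. Neither occurred in the windows of FOXO1 and CITED2, whose 250 bases before the start (for CITED2, its most upstream start) are given in the direction of the gene.
FOXO1 promoter, chr13:40666642-40666891, minus strand: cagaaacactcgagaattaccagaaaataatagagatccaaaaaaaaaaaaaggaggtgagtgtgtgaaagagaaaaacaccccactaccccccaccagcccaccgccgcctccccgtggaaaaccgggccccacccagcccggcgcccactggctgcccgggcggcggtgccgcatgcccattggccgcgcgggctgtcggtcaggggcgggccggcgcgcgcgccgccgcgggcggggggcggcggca
CITED2 promoter, chr6:139374649-139374898, minus strand: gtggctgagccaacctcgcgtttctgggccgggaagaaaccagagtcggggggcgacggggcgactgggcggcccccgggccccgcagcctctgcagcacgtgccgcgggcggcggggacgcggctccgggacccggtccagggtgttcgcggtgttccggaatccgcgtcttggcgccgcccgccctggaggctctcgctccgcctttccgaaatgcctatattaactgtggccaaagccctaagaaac
These stretches held 67.2% G and C with 27 CG pairs for FOXO1, and 70.0% with 30 CG pairs for CITED2. The forkhead core occurred in 3.42% of 35116 windows of all genes and the insulin response core in 4.92%. Counted by gene, 4.19% and 6.05% of 27305 genes had a window with the match.

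Among the windows of the 8 genes searched, which did not include FBXO32 and PINK1, 1 match to each core was found, in FOXO4 and in IRS2. Each is shown with 10 bases on both sides and the match in capitals, in the direction of the gene.
FOXO4, chrX:71095864-71095890, plus strand: ccggcgagtgGTAAACAgagacgtcag
IRS2, chr13:109786607-109786633, minus strand: agtcacatgtTGTTTTGctcttcttag
The forkhead core of FOXO4 began 24 bases into the transcript of that RefSeq start. In GENCODE 29 the gene begins later, at 71096197, so there the match lies before the gene. The IRS2 match, on the other strand as TGTTTTG, began 40 bases before its RefSeq start. A match is a run of letters and not a measured binding site, and its lack in a window says nothing of sites elsewhere. FOXO4, the gene with the forkhead core, was not called in the comparison above.

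FBXO32 encodes atrogin-1, the substrate receptor of a ubiquitin ligase best known from muscle wasting (ENSG00000156804, chromosome 8, 123497889 to 123541206, minus strand). It had 1.99, 1.96 and 2.12 CPM with erianin, against 4.37, 4.28 and 4.18 CPM with DMSO. Its raw counts were 73, 68 and 74 with erianin, against 133, 139 and 142 with DMSO. All 3 DMSO libraries lay near 4 CPM, DMSO replicate 1 included, and all erianin libraries near 2 CPM. FBXO32 fell by 1.08 ± 0.15 on the log2 scale, 2.11-fold (adjusted p = 0.0042). Without DMSO replicate 1 it fell by 1.05 ± 0.19 (adjusted p = 4.3e-05), and it was called without any 1 of the other 5 libraries as well (adjusted p up to 0.039). FBXO32 had the largest change of the 8 tested genes at one of the lowest levels.

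The 5 genes whose log2 CPM over the 6 libraries were most like those of FBXO32 were CDC25B, SUGP2, C20orf96, NCAPD2 and DNTTIP1, with Pearson correlations of 0.99926 to 0.99987. These describe 6 points that fall into 2 groups and share their libraries. CDC25B, a phosphatase that activates cyclin-dependent kinases, had 581, 568 and 610.4 CPM with erianin, against 1449, 1419 and 1390.3 CPM with DMSO. CDC25B was picked for its likeness to FBXO32, so its close DMSO libraries and the gap between groups follow from that choice.

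PINK1, a kinase that marks damaged mitochondria for removal (ENSG00000158828, chromosome 1, 20633455 to 20651511, plus strand), had 1.83, 1.39 and 1.34 CPM with erianin, against 0.986, 1.42 and 1.47 CPM with DMSO. The groups overlapped, and PINK1 was not called with all libraries (0.23 ± 0.25, adjusted p = 0.53) or without DMSO replicate 1 (0.088 ± 0.26, adjusted p = 0.80). Counts of 67, 48 and 47 with erianin, against 30, 46 and 50 with DMSO, limit its precision. It shares 1907 of 4836 exonic bases with PINK1-AS on the opposite strand, which was listed at 0 in all 6 libraries.

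The insulin pathway genes were near the detection limit. INSR, the insulin receptor (ENSG00000171105, chromosome 19, 7112255 to 7294034, minus strand), had 2, 0 and 2 counts with erianin, against 2, 2 and 3 counts with DMSO. IRS2, an adaptor that couples the receptor to PI3K (ENSG00000185950, chromosome 13, 109752698 to 109786568, minus strand), had 0, 2 and 0 counts with erianin, against 1, 0 and 0 counts with DMSO. No library was above the floor of 3 counts for either gene, so no fold change is given and no difference was detectable at this depth.

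**Figure D3:**
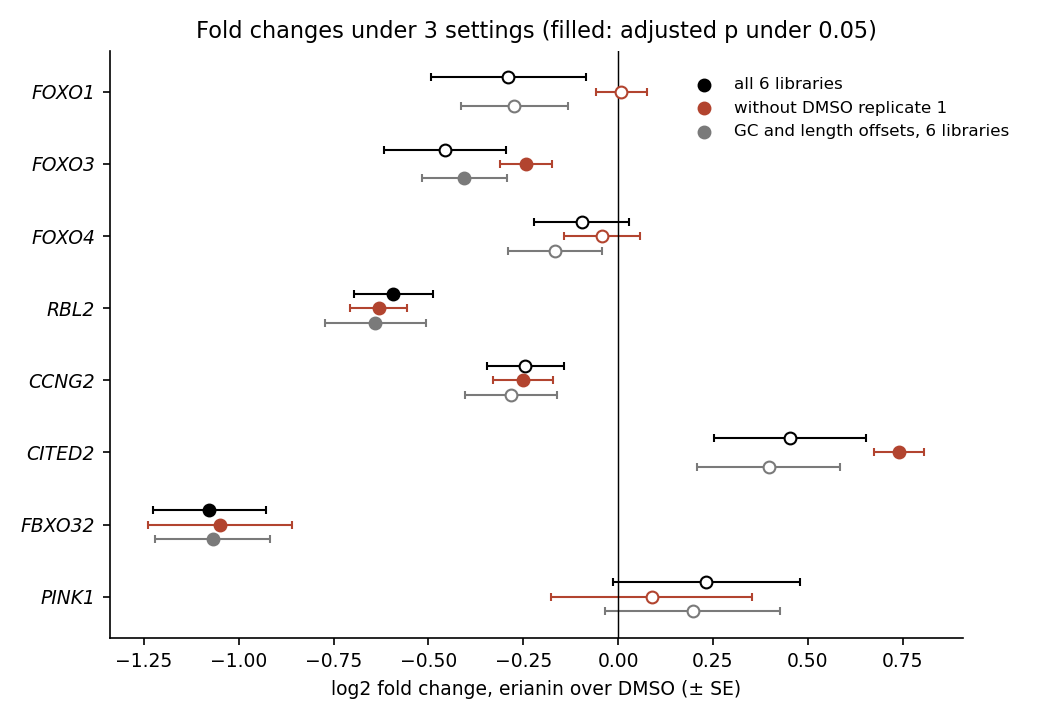
Log2 fold changes, erianin over DMSO, with their SE for the 8 tested genes with all 6 libraries, without DMSO replicate 1, and with GC content and length offsets; filled points have an adjusted p under 0.05. FBXO32 and RBL2 are filled in all 3 settings, FOXO3 in 2 of them, and CITED2 and CCNG2 only without DMSO replicate 1.

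Other genes of the pathway went both ways. Lists of FOXO regulators, further described targets and other forkhead genes held 115 genes besides the 10, of which 101 were tested. Of these, 16 rose and 21 fell, against 11.8% and 12.3% of all tested genes. Without DMSO replicate 1, 28 rose and 35 fell of 102 tested, against 27.8% and 27.4% of all genes. The median log2 fold change of these pathway genes was -0.073 with all libraries and -0.021 without DMSO replicate 1. All tested genes had -0.0033 and 0.025. Of the genes named from the lists below, CSNK1A1, YPEL3, PMAIP1, BCL2L11, ULK1, IGF1R, TRIB3, EIF4EBP1, TSC1, CXCR4, BACH2, FOXP4 and FOXJ2 were not called in the fits on log2 TPM. Some are also targets of other factors, as CDKN1A is of p53, so no change is credited to FOXO proteins.

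Of 32 regulators tested, which are the kinases, 14-3-3 proteins, ligases and cofactors that act on FOXO proteins, 5 rose and 3 fell. Over all tested genes 11.8% rose and 12.3% fell. Without DMSO replicate 1, 9 regulators rose and 9 fell, where 27.8% and 27.4% of all genes did. The median log2 fold change of the regulators was -0.06 with all libraries and 0.01 without that library. SGK1, a kinase that phosphorylates FOXO3 as AKT does, had 2.73, 3.005 and 3.09 CPM with erianin, against 0.788, 0.493 and 0.294 CPM with DMSO, and rose by 2.49 ± 0.32 on the log2 scale (adjusted p = 0.0033). Its paralog SGK3 had 2.24, 2.196 and 1.69 CPM with erianin, against 0.920, 0.863 and 0.824 CPM with DMSO (1.23 ± 0.21, adjusted p = 0.0083). YWHAG, an abundant 14-3-3 gene, had 732, 741 and 715 CPM with erianin, against 495, 420 and 392 CPM with DMSO (0.74 ± 0.12, adjusted p = 0.0059). CSNK1A1, which encodes a casein kinase, rose as well (0.62 ± 0.11, adjusted p = 0.0091). The groups of these genes, which were picked for a small p, did not overlap. The calls of SGK3 and CSNK1A1 ended without erianin replicate 1 or 2 (adjusted p up to 0.051 and 0.060), whereas SGK1 and YWHAG were called without any 1 library.

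Of 19 cell cycle and stress targets tested besides RBL2 and CCNG2, 5 rose and 4 fell, where 11.8% and 12.3% of all tested genes did. Of 20 tested without DMSO replicate 1, 8 rose and 6 fell, where 27.8% and 27.4% of all genes did. The median log2 fold change of the list was 0.15 with all libraries and 0.21 without that library. TXNIP, which binds thioredoxin and limits glucose uptake, had 226, 222 and 207 CPM with erianin, against 40.4, 46.7 and 43.9 CPM with DMSO. CCNB1, which encodes cyclin B1 and is among the genes FOXO3 was described to act on at mitotic exit, had 360.0, 345 and 331 CPM with erianin, against 91.9, 120 and 131 CPM with DMSO. CDKN1A, which encodes p21, had 13.7, 16.3 and 16.8 CPM with erianin, against 1.97, 3.64 and 3.35 CPM with DMSO. These 3 rose by 2.32 ± 0.11, 1.60 ± 0.15 and 2.38 ± 0.23 on the log2 scale (adjusted p = 0.00021, 0.0013 and 0.0016). YPEL3, a growth-suppressing gene, went the other way (-0.76 ± 0.11, adjusted p = 0.0046), with 28.5, 25.2 and 29.5 CPM with erianin, against 44.8, 49.1 and 47.1 CPM with DMSO.

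The death and autophagy targets other than FBXO32 and PINK1 held 14 tested genes, of which 2 rose and 1 fell. Without DMSO replicate 1, 5 rose and 4 fell. The shares of all genes were 11.8% and 12.3% with all libraries and 27.8% and 27.4% without that library. The median log2 fold change of the list was 0.06 with all libraries and 0.13 without that library. PMAIP1, which encodes the BH3-only protein NOXA, had 56.9, 54.8 and 50.1 CPM with erianin, against 31.5, 39.5 and 36.7 CPM with DMSO (0.59 ± 0.12, adjusted p = 0.015). BCL2L11, which encodes BIM and is among the best described FOXO targets of lymphocytes, had 106, 109 and 99.6 CPM with erianin, against 149.9, 132 and 134 CPM with DMSO. Each erianin library was lower and BCL2L11 fell (-0.41 ± 0.10, adjusted p = 0.028). ULK1, an autophagy kinase, rose (0.54 ± 0.15, adjusted p = 0.034). MAP1LC3B, which encodes an LC3 protein of autophagosomes, was not called (-0.29 ± 0.12, adjusted p = 0.11). The call of PMAIP1 ended without erianin replicate 1 or 2 (adjusted p up to 0.076), that of ULK1 without any erianin library or DMSO replicate 3 (adjusted p up to 0.12), and that of BCL2L11 without any 1 erianin library, DMSO replicate 2 or DMSO replicate 3 (adjusted p up to 0.13). BCL2L11 was called in 9 of 18 alternatives, and with all 6 libraries it was also not called with total counts alone (adjusted p = 0.092), with the replicate block (adjusted p = 0.069) or on the TPM scales (adjusted p = 0.62 in both).

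Among 12 tested metabolic and insulin-feedback targets besides the members, 0 rose and 4 fell, where 11.8% and 12.3% of all tested genes did. At an unadjusted p under 0.05 edgeR had 0 higher and 5 lower, where 19% and 19.4% of all tested genes were. DESeq2 called 0 higher and 5 lower, where it called 11.8% and 13.5% of genes. The list had 0 higher and 6 lower without DMSO replicate 1, where 27.8% and 27.4% of all genes were. The median log2 fold change of the list was -0.25 with all libraries and -0.26 without that library. IGF1R, the IGF1 receptor gene, had 16.1, 16.0 and 17.2 CPM with erianin, against 28.8, 23.7 and 23.5 CPM with DMSO (-0.62 ± 0.12, adjusted p = 0.013). TRIB3, a pseudokinase described to bind AKT, had 254, 256 and 288 CPM with erianin, against 324, 562 and 555 CPM with DMSO (-0.85 ± 0.21, adjusted p = 0.026). EIF4EBP1, the inhibitor of eIF4E, and TSC1, a brake on mTORC1, fell by 0.53 ± 0.13 and 0.62 ± 0.16 on the log2 scale (adjusted p = 0.025 and 0.031). The calls of IGF1R (adjusted p up to 0.080), TRIB3 (up to 0.11), EIF4EBP1 (up to 0.13) and TSC1 (up to 0.13) ended without erianin replicate 1 or 2. That of TSC1 also ended with total counts alone (adjusted p = 0.066). Those of TRIB3, EIF4EBP1 and TSC1 also ended without erianin replicate 3, and those of TRIB3 and EIF4EBP1 without DMSO replicate 2 or 3.

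Of 14 tested genes described as FOXO1 targets in B cells, 2 rose and 5 fell, where 11.8% and 12.3% of all tested genes did. Without DMSO replicate 1, 5 rose and 5 fell, where 27.8% and 27.4% of all genes did. The median log2 fold change of the list was -0.36 with all libraries and -0.05 without that library. With the GC content and length offsets 0 rose and 5 fell, where 14.9% and 21.8% of all genes did. CD79A and CCR7, the genes that rose without offsets, then had adjusted p = 0.51 and 0.11. RAG1, a recombinase gene of early B cells, had 181, 186 and 171 CPM with erianin, against 439, 339 and 332 CPM with DMSO (-1.05 ± 0.13, adjusted p = 0.0033). CXCR4, the chemokine receptor of the dark zone, had 526, 507 and 512 CPM with erianin, against 864, 807 and 794 CPM with DMSO (-0.67 ± 0.093, adjusted p = 0.0041). BACH2, a transcription repressor of germinal centre cells, had 269, 283 and 267 CPM with erianin, against 556, 437 and 414 CPM with DMSO (-0.78 ± 0.13, adjusted p = 0.0076). The groups were apart for RAG1, CXCR4 and BACH2, which were picked for a small p. FOXO1 itself lay within 79.9 to 82.5 CPM in 5 of 6 libraries and at 135 CPM in DMSO replicate 1. RAG1, CXCR4 and BACH2 were also highest in that library, and a link between FOXO1 and these genes was not tested. BACH2 was not called without erianin replicate 1 or 2 (adjusted p up to 0.055), and RAG1 and CXCR4 were called without any 1 library. Beside this list, PAX5, a B-cell marker, fell by 0.998 ± 0.11 on the log2 scale (adjusted p = 0.0023), and the part of B-cell identity genes in the list's values was not tested.

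Of 11 other forkhead genes tested, 2 rose and 4 fell, where 11.8% and 12.3% of all tested genes did. Without DMSO replicate 1, 2 rose and 5 fell, where 27.8% and 27.4% of all genes did. The median log2 fold change of the list was -0.46 with all libraries and -0.07 without that library. FOXP1, a forkhead repressor expressed in B cells, had 56.8, 53.6 and 54.7 CPM with erianin, against 226, 107 and 105 CPM with DMSO (-1.41 ± 0.30, adjusted p = 0.016). FOXP1 fell by 0.93 when DMSO replicate 1 was left out (adjusted p = 2.4e-11). FOXP4 had 190.5, 194 and 220.2 CPM with erianin, against 369, 303 and 308 CPM with DMSO (-0.70 ± 0.12, adjusted p = 0.0081). FOXJ2 fell (-0.71 ± 0.17, adjusted p = 0.023) and FOXN2 rose (0.88 ± 0.20, adjusted p = 0.020). All 4, picked for a small p, kept a gap between the groups. Of all tested genes 23.6% were apart and higher and 23.1% apart and lower. FOXO3 kept a gap as well, and FOXO1 and FOXO4 did not. The calls of FOXP1, FOXJ2 and FOXN2 ended without any 1 erianin library (adjusted p up to 0.079, 0.11 and 0.088), that of FOXP4 without erianin replicate 1 or 2 (up to 0.061), and that of FOXN2 also without DMSO replicate 2 or 3.

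**Figure D4:**
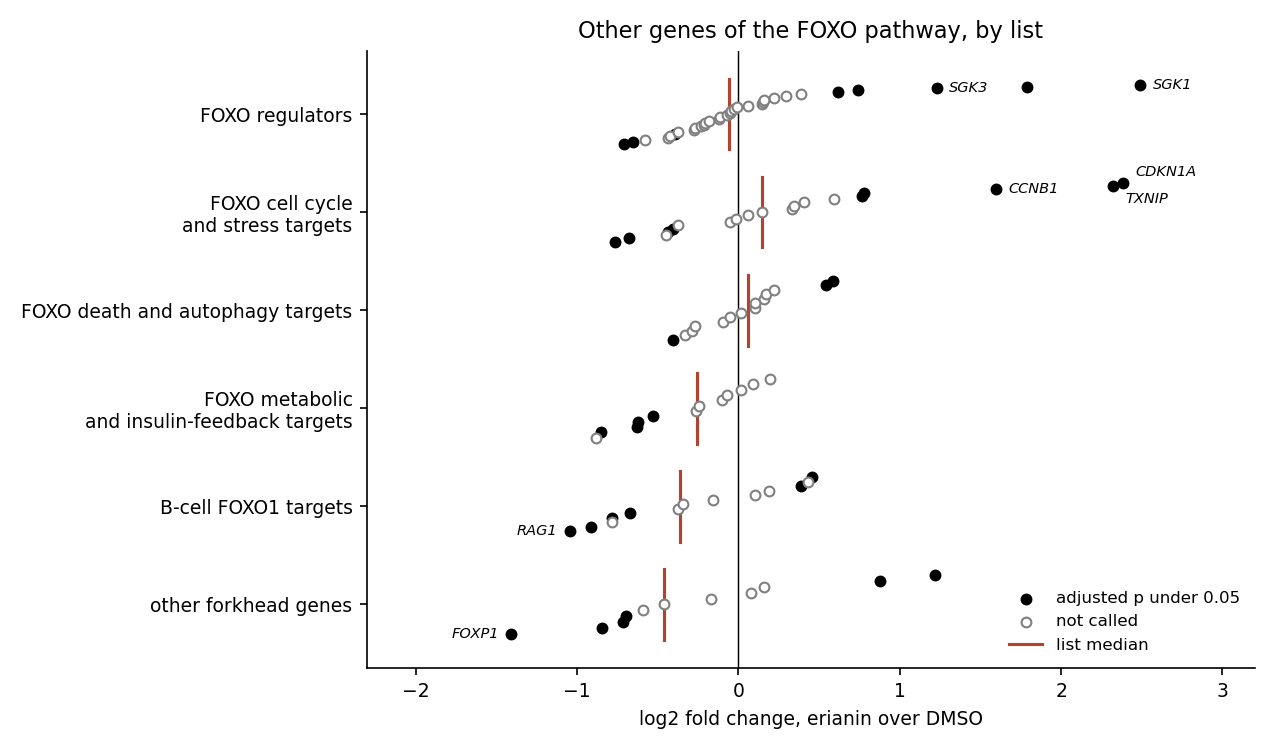
Log2 fold changes, erianin over DMSO, of tested genes in 6 lists around the FOXO pathway, without the 10 genes themselves; filled points have an adjusted p under 0.05 and the red line is the median of each list. Lists spread to both sides of 0, with SGK1, TXNIP and CDKN1A highest among the genes drawn.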

How the data were processed

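Gene expression was measured by RNA sequencing of TRIzol-extracted total RNA with standard Illumina library preparation, as the labels' protocols say. The authors deposited raw counts per gene and a table of TPM. Per the submitters' processing notes, the build was GRCh38 (hg38) and the tools were StringTie 2.2.1, featureCounts 2.0.1, fastp 0.23.2 and STAR 2.7.10, with no role for each. The sources used here do not give the annotation release or how strand and multimapped reads were handled. After 61 repeated symbols were left out, 65746 remained, and edgeR's filterByExpr kept 11550 for testing.

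Groups were compared in R 4.3.3 by edgeR 4.0.16 (glmQLFit and glmQLFTest) with TMM and treatment as the single term, on all tested genes, with Benjamini-Hochberg adjusted p-values called at 0.05. Log2 fold changes are erianin minus DMSO, and each SE is derived from the fold change and its F statistic. The fits were tested on simulated counts. The 10 genes and all lists were chosen with earlier results of these data known. Genes named from a list were the 4 with the smallest p besides the 10 genes, and genes most like FBXO32 were the 5 with the highest Pearson correlation. Some list genes are counted but not reported here by name or drawn. CD14, CSF1R, NKG7, LYZ, CD79A, CCR7, the markers at 0, PAX5, FOXO3B, FOXO6 and AKTIP were named after their values were seen.

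Alternatives were DESeq2 size factors, total counts alone, other filters, DESeq2 1.42.0, limma 3.58.1 on log2(TPM + 1) and log2(TPM + 0.1), a replicate block, offsets for GC content and length (mgcv 1.9.3, covering 98.7% of tested genes) and leaving out each library. Chosen after seeing the data were limma-voom with sample quality weights and the offsets without DMSO replicate 1. Coordinates are from GENCODE 29 (GRCh38), matched by Ensembl identifier. Promoter windows are from RefSeq (GRCh38.p14).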

Additional observations from a re-analysis of the deposited data

How the results depend on the processing

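Calls among the 8 tested genes moved with DMSO replicate 1, with the TPM scales and with single erianin libraries. Genes called higher numbered 0 with all libraries and 1 (CITED2) without DMSO replicate 1, with voom and sample quality weights (like the offsets without DMSO replicate 1, an alternative chosen after seeing the data), with the offsets and no DMSO replicate 1, on log2(TPM + 1) and on log2(TPM + 0.1), and from 0 to 1 when each library was left out. Genes called lower numbered 2 with all libraries and 4 with voom weights and with the offsets and no DMSO replicate 1, 1 on log2(TPM + 1), 0 on log2(TPM + 0.1), and from 1 to 4 when each library was left out. On the TPM scales the median of all tested genes stood at 0.20 and 0.28 (log2), and at 0.11 with total counts alone, against -0.0033. Calls and signs in these fits were taken against 0 and not against these medians. Over all genes 1368 rose and 1423 fell with all libraries, 1840 and 918 with total counts alone, 1408 and 262 on log2(TPM + 1), 1263 and 245 on log2(TPM + 0.1), 1723 and 2518 with the offsets, 2890 and 4349 with the offsets and no DMSO replicate 1, 3699 and 3709 with voom weights, and 407 to 3278 and 338 to 3227 when each library was left out. FBXO32 was called in 17 of 18 alternatives and missed the threshold on log2(TPM + 0.1) (adjusted p = 0.051), RBL2 was called in 14, FOXO3 in 6, CITED2 in 5 and CCNG2 in 3. FOXO1 (-0.42 to 0.026) and FOXO4 (-0.19 to 0.17) were called in 0 of 18 and changed sign in 3 each. CCNG2 changed sign in 2, and PINK1 was called in 0. On the TPM scales the positive values of FOXO1 (0.026 in both), FOXO4 (0.16 and 0.17) and CCNG2 (0.023 and 0.027) lay below the medians of all genes. So did the 0.012 of FOXO4 with total counts alone.

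Of the other pathway genes, 16 rose and 21 fell with all libraries. Those called higher numbered 30 with voom weights and 26 with the offsets and no DMSO replicate 1, and from 6 to 28 when each library was left out. Those called lower numbered 42 with voom weights, 49 with the offsets and no DMSO replicate 1, 4 on log2(TPM + 1), 4 on log2(TPM + 0.1), and from 4 to 35 when each library was left out. The cause of these shifts was not tested, and a fit without 1 library has fewer samples. With the replicate block, 0 of the 8 genes rose and 2 fell, and 13 of the other genes rose and 17 fell, and over all genes 1139 rose and 1157 fell. Same-numbered libraries had correlations of deviations of 0.17, -0.14 and 0.23. Deviations of the DMSO libraries mainly reflect DMSO replicate 1, so these values cannot show whether the numbers pair the samples. At this depth INSR and IRS2 cannot be compared, and PINK1 rests on 30 to 67 counts a library.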
